A study of Mus musculus with 20 samples.

Results

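The cells described here are the endothelial cells of the mouse spinal cord, the cells that line its blood vessels. They were taken as cluster 2 of the cluster numbers that the authors assigned in the table of all single cells, which gave 1075 of 21016 cells (5.12%). All cells came from female C57BL/6J mice of 8 to 10 weeks. The mice ate vehicle chow or chow with PLX5622 (1200 ppm), an inhibitor of the receptor Csf1r that depletes microglia, from 2 weeks before surgery until the end point. Surgery was a laminectomy at T9 (sham) or a contusion of the cord at that level. Injured cords were taken at 7 or 28 days post-injury (dpi). The sham library of each diet was labelled with both times and served as the reference for both. Each of the 6 conditions was 1 library, and each library pooled 3 to 4 mice. PLX5622 also acts on other cells that need Csf1r, and it left microglia in the cord, with 29, 61 and 126 cells in the microglia cluster at sham, 7 dpi and 28 dpi. Cords were not perfused, so blood cells were part of the sample. The vehicle libraries held 82, 351 and 420 endothelial cells at sham, 7 dpi and 28 dpi, and the PLX5622 libraries held 76, 81 and 65.

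Spinal cord endothelial cells form the blood-spinal cord barrier. Tight junction proteins such as claudin 5 seal the gaps between them, transporters carry glucose, amino acids, lactate and iron across them, and little passes through them in vesicles. Wnt signals from neural cells maintain this state, and flowing blood keeps the transcription factors Klf2 and Klf4 active in them. The lining changes along the vessel from arterial to capillary to venous cells, each with marker genes of its own. Injury breaks the barrier, and vessels are lost and then grow back in the days that follow.

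The cluster bore out its name. All 5 endothelial markers had their highest level of the 14 clusters in it, namely the tight junction protein Cldn5, the surface protein Ly6c1, the organic anion transporter Slco1a4, the vascular phosphatase Ptprb and the secreted protein Egfl7. Levels are given as CPM, the summed molecules (UMIs) of a gene in the endothelial cells of a library after all their UMIs were scaled to a total of 1000000. Cldn5 stood at 6765, 4390 and 3722 CPM at sham, 7 dpi and 28 dpi under vehicle and at 7243, 5841 and 4391 CPM under PLX5622. Ly6c1 was at 6085, 4066 and 4707 CPM under vehicle and at 4563, 5521 and 4890 CPM under PLX5622. After each cell was thinned to 1000 UMIs, 91.4% to 100% of endothelial cells in a library held a Cldn5 UMI, against 0% to 1.85% of microglia. Slco1a4, Ptprb and Egfl7 lay between 1650 and 3018, 1041 and 1773, and 914.7 and 1653 CPM over the 6 libraries. None of the 5 markers passed 2-fold in any of the 8 comparisons made here. Their median log2 ratio was -0.62 at 7 dpi and -0.85 at 28 dpi against sham under vehicle, beside -0.18 and -0.17 for all genes. Without cells with the myeloid or mural RNA described next, it was -0.25 and -0.44, beside -0.11 and -0.06 for all genes. Under PLX5622 it was -0.13 and -0.23, beside -0.07 and -0.08.

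**Figure D1:**
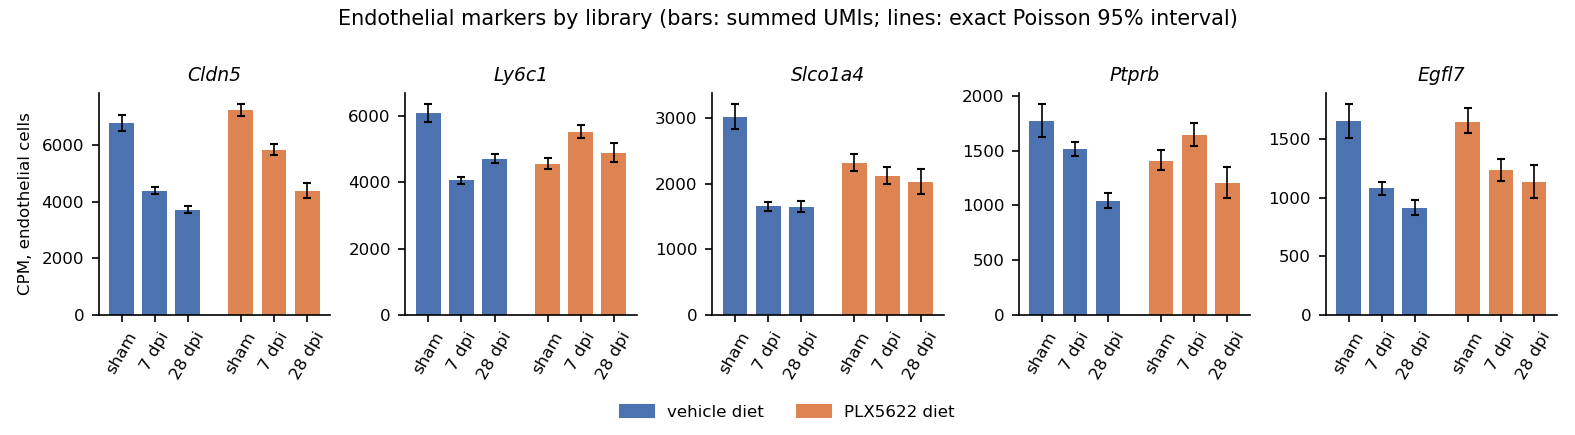
Levels of the 5 endothelial markers in endothelial cells, in CPM (vertical axes start at 0), for the 6 libraries by diet and time, with exact Poisson 95% intervals as lines. Under vehicle all 5 were lower at 7 and 28 dpi than at sham, and none passed 2-fold in any comparison.

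RNA of other cells moved with injury and diet in these cells, and its values stand here because they touch the comparisons that follow. The summed level of 12 myeloid genes was 1585, 9891 and 12200 CPM in vehicle cells at sham, 7 dpi and 28 dpi. In PLX5622 cells it was 127.5, 1905 and 1497 CPM. All 12 genes were above 0 in each library except sham PLX5622, where 11 were. Against the level in all other cells of the same library, the sums under vehicle were 5.56%, 24.6% and 28.1%, and those under PLX5622 were 1.64%, 7.01% and 5.7%. Endothelial cells with 3 or more UMIs of those genes made up 12.2%, 59.5% and 51.7% under vehicle and 9.21%, 16% and 12.3% under PLX5622. For comparison, the T cells of the same libraries held 4597, 21670 and 19120 CPM under vehicle and 1935, 3459 and 3034 CPM under PLX5622. In the T cells of sham PLX5622, 5 of the 12 genes were above 0. Expression of these genes by the T cell cluster itself was not told apart from RNA of other cells. The summed level of 12 mural genes, which mark the pericytes and smooth muscle cells that wrap the vessel, was 300.9, 1006 and 2533 CPM under vehicle and 2959, 844.3 and 3075 CPM under PLX5622. Mural RNA was lowest in the sham vehicle cells, while myeloid RNA was highest in the injured vehicle cells. Cells with neither kind of RNA, that is with fewer than 3 myeloid UMIs and fewer than 3 UMIs of 7 mural genes, numbered 70, 127 and 163 under vehicle and 59, 62 and 46 under PLX5622. Endothelial UMIs totalled 309109, 1418075 and 887766 under vehicle and 588421, 564968 and 232514 under PLX5622, so 1 UMI was worth between 0.7052 and 4.301 CPM. The median endothelial cell held between 1342 UMIs (28 dpi vehicle) and 5342 UMIs (sham PLX5622).

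**Figure D2:**
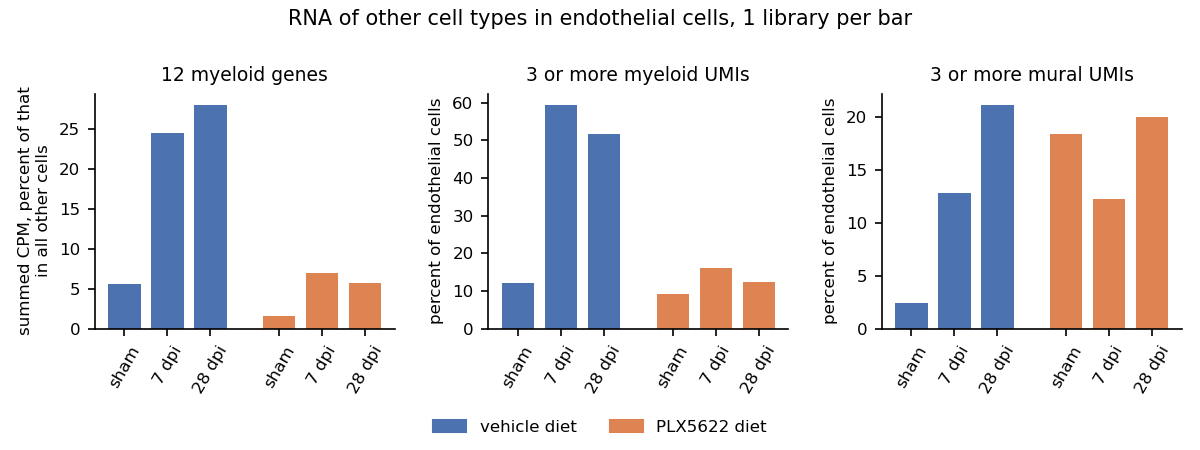
RNA of other cell types in endothelial cells of the 6 libraries: the summed CPM of 12 myeloid genes as a percent of that in all other cells of the library (left), and the percent of endothelial cells with 3 or more myeloid (middle) or mural UMIs (right). Myeloid RNA was highest in the 7 and 28 dpi vehicle libraries (24.6% and 28.1%), and mural RNA was lowest in sham vehicle cells (2.44% of cells).

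With 1 library per condition there is no replicate check and no test of any difference. A log2 ratio of 2 libraries is given with its exact binomial 95% interval, which covers counting error only. A gene counted as past 2-fold where the ratio was at least 2-fold and the interval left out 0, among 3549 genes with a mean of at least 50 CPM. It was then counted in 4 further ways: with each cell weighted alike, without the cell that held most of its UMIs, without the cells with 3 or more myeloid or mural UMIs, and after subtracting the profile of the other cells in proportion to the myeloid genes. A gene is said to have held where it stayed past 2-fold in the same direction in all 4 and was at least as high in endothelial cells as in all other cells of the higher library. In summed RNA, fewer molecules per cell and fewer cells that express a gene cannot be told apart. The comparisons against sham vehicle share that library, those against sham PLX5622 share the other, and the diet comparisons use the same injured libraries again, so no comparison is independent of the others.

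At 7 dpi under vehicle, levels of arterial genes, immediate early genes, Klf2, Klf4 and single regulators such as Sox18 were lower in endothelial cells. Few higher genes held in the 4 further counts. Against sham, 139 of the 3549 genes were past 2-fold higher (3.92%) and 188 were lower (5.3%). With TMM scaling the counts were 196 higher and 82 lower, so the share of higher calls was 42.5% with totals, 70.5% with TMM and 64.4% with DESeq2's factors. The median of all genes was -0.18 with totals and 0.03 with TMM. The balance of higher and lower genes therefore depended on the scaling, and single genes are best read against the median. Only 12 of the higher genes (0.338%) and 37 of the lower genes (1.04%) held in the 4 further counts. All 4 of these counts scale by totals, and neither TMM nor DESeq2's factors were among them.

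Arterial genes had the lowest median of the endothelial gene lists plotted here at 7 dpi under vehicle. Of 7 measured, 6 were past 2-fold lower and none higher, and their median was -1.69, or -1.20 without cells with myeloid or mural RNA. Tm4sf1, a surface protein of endothelial cells, was at 1375, 455.5 and 749.1 CPM at sham, 7 dpi and 28 dpi under vehicle and at 912.6, 738.1 and 735.4 CPM under PLX5622. Its ratio at 7 dpi was -1.59 (-1.77 to -1.41), and the gene held. Stmn2, a regulator of microtubules, was at 197.3, 47.25 and 75.47 CPM under vehicle and at 136, 28.32 and 38.71 CPM under PLX5622. Both sham libraries were above all injured ones, with 7 dpi ratios of -2.06 (-2.59 to -1.54) under vehicle and -2.26 (-3.14 to -1.48) under PLX5622. It was seen in few cells, 13 of 82 at sham and 36 of 351 at 7 dpi under vehicle. Mgp, the matrix Gla protein, was at 750.5, 174.9 and 484.4 CPM under vehicle and at 484.3, 272.6 and 567.7 CPM under PLX5622. At sham under vehicle its UMIs came from 8 cells, and without the cell that held most of them the 7 dpi ratio moved from -2.10 to -0.67. Clu (clusterin), Alpl (alkaline phosphatase) and Unc5b (a netrin receptor) were the other members past 2-fold, and they did not hold.

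The list of immediate early genes also holds heat shock genes and the flow-responsive factors Klf2 and Klf4. Of its 20 measured genes, 10 were past 2-fold lower at 7 dpi under vehicle and none was higher. Their median was -0.92, and it was -0.65 without cells with myeloid or mural RNA. Klf2, which flowing blood induces, was at 2737, 1123 and 1622 CPM at sham, 7 dpi and 28 dpi under vehicle and at 2051, 1756 and 1471 CPM under PLX5622. The 7 dpi vehicle library was the lowest of the 6 for Klf2, at -1.28 (-1.41 to -1.16) against sham, or -0.83 without cells with other RNA. Klf2 therefore did not hold. The fall in Klf2 was not particular to endothelial cells. Thinned endothelial cells with a Klf2 UMI made up 84.2%, 67.2% and 72.9% under vehicle and 76.5%, 73.2% and 77.4% under PLX5622. In thinned microglia the shares were 52.8%, 14.2% and 10.0% under vehicle and 32.0%, 16.7% and 5.31% under PLX5622. A part of blood flow in the Klf2 levels was not tested. The related factor Klf4 was at 883.2, 309.6 and 453.9 CPM under vehicle and at 724, 497.4 and 529 CPM under PLX5622. It held at 7 dpi under vehicle, with a ratio of -1.51 (-1.73 to -1.29). Hspa1a, an inducible heat shock protein, was at 181.2, 14.1 and 78.85 CPM under vehicle and at 67.98, 40.71 and 34.41 CPM under PLX5622. It held at -3.68 (-4.50 to -2.92) at 7 dpi and was higher at 28 dpi than at 7 dpi by 2.48 (1.75 to 3.28). Jun, a subunit of the AP-1 factor, was at 1323, 494.3 and 615 CPM under vehicle and at 1052, 727.5 and 322.6 CPM under PLX5622. Fos, Junb, Jund, Ier2, Btg2 and Zfp36 were also past 2-fold lower at 7 dpi without holding. This group includes genes that tissue dissociation can induce, and dissociation was not measured apart from condition.

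The promoter of Klf2 is shown because factors of the MEF2 family, which flow activates, are known to act on it. The 250 bases before its start in RefSeq on GRCm38.p6 lie at chr8:72318812-72319061 on the plus strand, and capitals mark the only match to a MEF2-type motif, CTA and TAG with any 4 bases between them, searched on both strands.
Klf2: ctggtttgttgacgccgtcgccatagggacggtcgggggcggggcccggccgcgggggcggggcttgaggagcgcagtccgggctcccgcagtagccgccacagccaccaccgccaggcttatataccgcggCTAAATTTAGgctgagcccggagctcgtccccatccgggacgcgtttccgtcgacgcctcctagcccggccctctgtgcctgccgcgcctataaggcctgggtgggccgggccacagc
The match begins 118 bases before the start. The same letters occur in 3.2% of all 32851 promoters of this length, and in 3 of the 16 members of the immediate early list with a promoter (Jun, Ier3 and Klf2), against 3.7% of gene symbols. A match describes the letters and shows no binding.

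**Figure D3:**
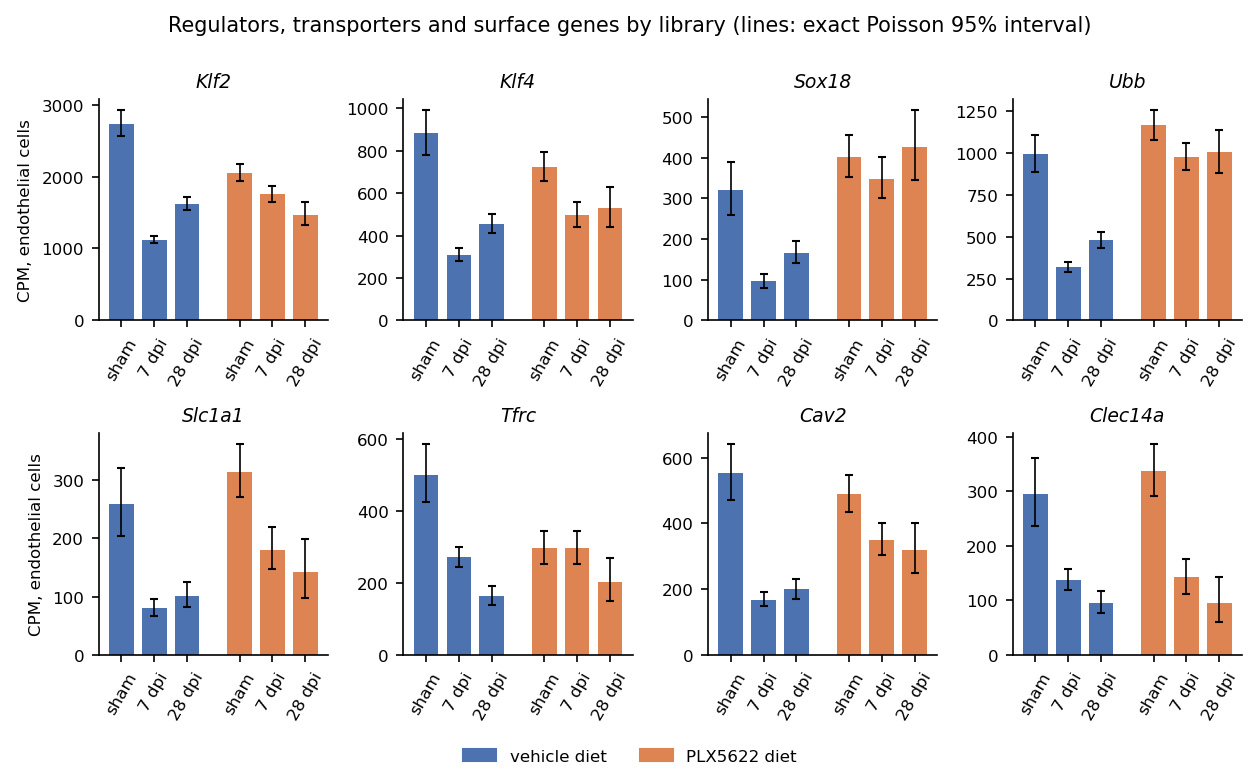
CPM of Klf2, Klf4, Sox18, Ubb, Slc1a1, Tfrc, Cav2 and Clec14a in endothelial cells by library, with exact Poisson 95% intervals as lines and vertical axes from 0. Sox18 and Ubb were lowest in the 2 injured vehicle libraries and Clec14a was lower in all 4 injured libraries than at sham.

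Among 29 genes of endothelial identity, 4 were past 2-fold lower at 7 dpi under vehicle (Sox18, Emcn, Clec14a and Cd34), with a median of -0.48, or -0.29 without cells with other RNA. Sox18, a transcription factor of endothelial development, was at 320.3, 95.9 and 165.6 CPM under vehicle and at 401.1, 348.7 and 425.8 CPM under PLX5622. It held at -1.74 (-2.12 to -1.35), and the 2 injured vehicle libraries lay below the other 4. After thinning to 1000 UMIs, a Sox18 UMI was found in 30.3%, 10.0% and 16.5% of endothelial cells under vehicle and in 35.3%, 25.4% and 30.2% under PLX5622, against 0% to 0.2% of microglia. Ubb, a gene of polyubiquitin, was also lowest in those 2 libraries, with 993.2, 318 and 479.9 CPM under vehicle and 1166, 978.8 and 1006 CPM under PLX5622. Ubb is not particular to these cells, and it was also found in fewer thinned microglia at 7 and 28 dpi under vehicle (17.8% and 20.4%) than at sham (43.0%) or in the 3 PLX5622 libraries (40.0% to 48.1%). Emcn (endomucin, a surface sialomucin) was at 1087, 488.7 and 547.4 CPM under vehicle and at 752.9, 690.3 and 559.1 CPM under PLX5622, and it did not hold at 7 dpi.

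Barrier genes had lower medians than all genes at 7 dpi under vehicle. Of 26 transporters, 4 were past 2-fold lower (Slc6a6, Slc16a4, Slc19a3 and Slc1a1), and the median of -0.62 became -0.21 without cells with other RNA. Slc1a1, which takes up glutamate, was at 258.8, 79.69 and 101.4 CPM under vehicle and at 314.4, 180.5 and 141.9 CPM under PLX5622. It held at -1.70 (-2.12 to -1.27). Of 14 junction genes, only Ocln (occludin) was past 2-fold lower, at 255.6, 113.5 and 145.3 CPM under vehicle, and it did not hold. Of 8 genes of caveolae and transcytosis, Cav1 and Cav2 were lower, and the list's median was -0.74, or -0.63 without cells with other RNA. Cav2 (caveolin 2) was at 553.2, 167.1 and 199.4 CPM under vehicle and at 489.4, 350.5 and 318.3 CPM under PLX5622. Cav2 held at both times, with -1.73 (-2.02 to -1.44) at 7 dpi, and -1.47 (-1.78 to -1.16) by 28 dpi. Among 13 Wnt and barrier genes, Reck, which helps the receptor Gpr124 pass on a Wnt signal, held at -1.55 (-2.38 to -0.68) and no other member passed. Capillary genes had 4 of 12 past 2-fold lower (Rgcc, Car4, Cxcl12 and Slc16a4), and Rgcc held, at 446.4, 119.9 and 279.4 CPM under vehicle.

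Signalling lists are read against the 5.3% of all genes that were lower at 7 dpi under vehicle. None of 8 VEGF and angiopoietin genes passed 2-fold, and their median was -0.34. Of 8 Notch genes, the ligand Dll4 and the target Hes1 were lower, and Hes1 held, at 265.3, 90.97 and 86.73 CPM under vehicle and 202.2, 132.8 and 154.8 CPM under PLX5622. Of 27 cell cycle genes, only 6 reached the level filter, and none of these passed. Of 5 markers of cycling cells (Stmn1, Mki67, Top2a, Birc5 and Pclaf), only Stmn1 was measured. UMIs of 1 of the 5 were seen in each sham library, and of all 5 at 7 dpi under both diets. At 28 dpi, 5 were seen under vehicle and 3 under PLX5622. Whether any UMI is seen also depends on depth. Endothelial UMIs totalled 309109 at sham and 1418075 at 7 dpi under vehicle, and 588421 and 564968 under PLX5622. A part of depth or of RNA of other cells in these detections was not tested. Genes below the filter were not compared, so their response to injury was not assessed. Sprouting genes had 3 of 11 lower (Dll4, Cd34 and Unc5b), with a median of -0.17 beside -0.18 for all genes.

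Higher genes that held at 7 dpi under vehicle were few. Of 13 TGF-beta and BMP genes, Tgfbr1 and Smad1 were past 2-fold higher, and Smad1, which carries BMP signals, held at 55, 185.5 and 113.8 CPM under vehicle. The 7 dpi ratio was 1.75 (1.05 to 2.56), and the 28 dpi ratio was 1.05 (0.30 to 1.88). Of 13 basement membrane genes, Nid1 (nidogen 1, a linker of laminin and collagen) held at 29.12, 112.8 and 96.87 CPM, with a ratio of 1.95 (0.99 to 3.11). Sham vehicle cells were the lowest of the 6 libraries for Nid1, which was at 93.47, 123.9 and 107.5 CPM under PLX5622. Oasl2, an interferon-induced gene, also held, at 42.06, 95.2 and 78.85 CPM under vehicle and 91.77, 95.58 and 176.3 CPM under PLX5622. Sham vehicle cells were again the lowest of the 6 libraries. The 26 interferon genes as a list had a median of -0.09, or 0.12 with TMM scaling, so that its sign turned with the scaling. Scgb3a1, a small secreted protein, was at 64.7, 291.9 and 81.1 CPM under vehicle and at 42.49, 582.3 and 86.02 CPM under PLX5622. It was highest at 7 dpi under both diets and held at 2.17 (1.53 to 2.90) under vehicle and 3.78 (3.19 to 4.43) under PLX5622. Thinned cells with a Scgb3a1 UMI made up 2.63%, 16.4% and 6.27% under vehicle and 2.94%, 23.9% and 11.3% under PLX5622, and no thinned microglia held one.

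**Figure D4:**
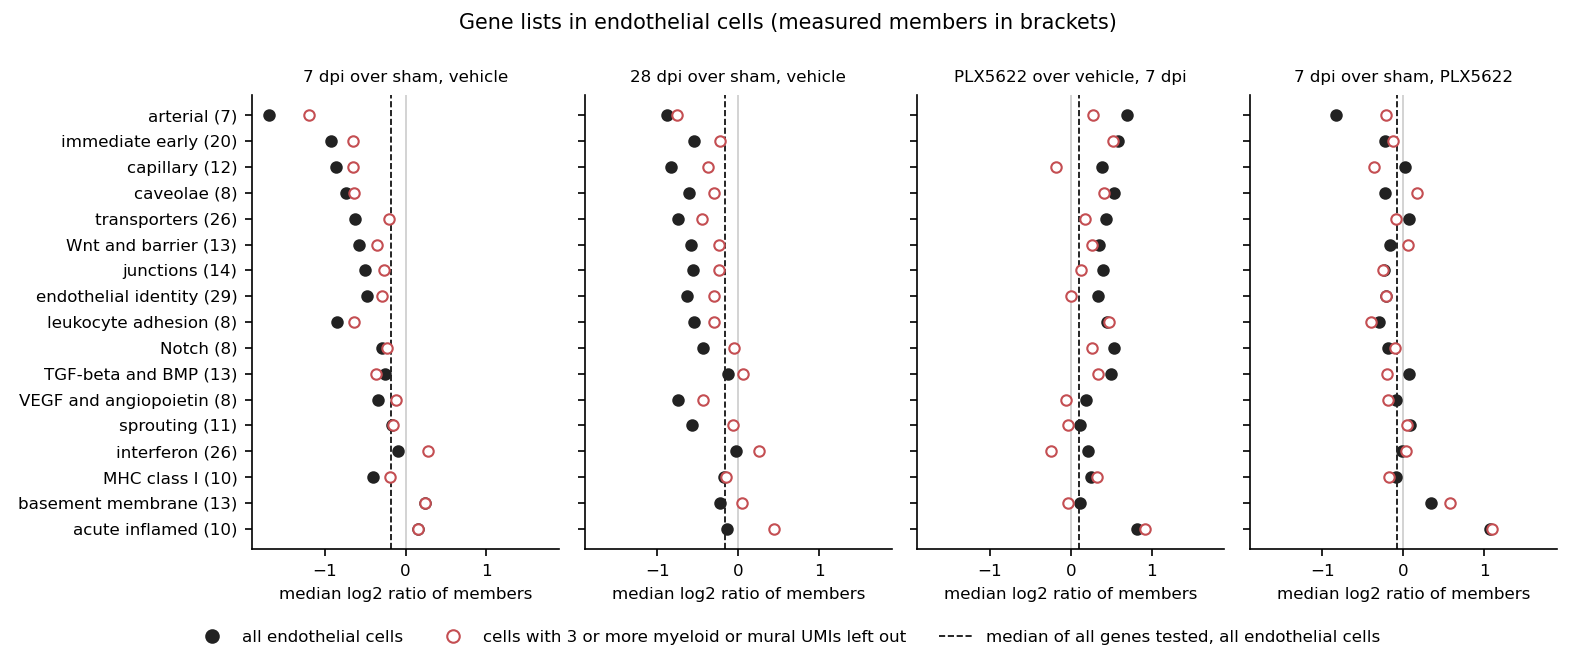
Median log2 ratio of the measured members of the gene lists of endothelial function, signalling and inflammation named on the vertical axis, in 4 comparisons, for all endothelial cells (black) and without cells with 3 or more myeloid or mural UMIs (red open circles), with the median of all 3549 genes as a dashed line. Of the lists drawn, arterial genes had the lowest median at 7 dpi under vehicle (-1.69), and acute inflammatory genes the highest at 7 dpi under PLX5622 (1.08).

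At 28 dpi under vehicle, transporters, Clec14a and regulators such as Hes1 and Lmo2 were among the lower genes. The medians of arterial and immediate early genes were -0.88 and -0.55, against -1.69 and -0.92 at 7 dpi. Against sham, 133 genes were past 2-fold higher (3.75%) and 140 lower (3.94%), and 9 (0.254%) and 25 (0.704%) held. The share of higher calls was 48.7% with totals, 69.1% with TMM (179 higher, 80 lower) and 66.3% with DESeq2's factors. Of 26 transporters, 6 were past 2-fold lower (Slc16a1, Tfrc, Slc38a5, Slc16a4, Slc39a8 and Slc1a1), with a median of -0.74, or -0.45 without cells with other RNA. Tfrc, the transferrin receptor that brings in iron, was at 501.4, 270.8 and 162.2 CPM under vehicle and at 295.7, 295.6 and 202.1 CPM under PLX5622. Its ratio was -1.63 (-1.97 to -1.29), and it held. Slc38a5, a glutamine transporter, was at 543.5, 331.4 and 189.2 CPM under vehicle and at 419.8, 516.8 and 215 CPM under PLX5622. It held at -1.52 (-1.84 to -1.21), and the 28 dpi library was the lowest for both genes under each diet.

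Clec14a, a surface lectin of endothelial cells, was past 2-fold lower than sham at both times under both diets. It was at 294.4, 137.5 and 94.62 CPM under vehicle and at 336.5, 141.6 and 94.62 CPM under PLX5622. The 28 dpi ratios were -1.64 (-2.08 to -1.19) under vehicle and -1.83 (-2.54 to -1.19) under PLX5622, and both held. Of 29 identity genes, Ets1, Ets2 and Lmo2 were also past 2-fold lower at 28 dpi under vehicle, and Lmo2 held. Ndnf, a secreted neurotrophic factor, was at 284.7, 100.8 and 70.96 CPM under vehicle and at 236.2, 90.27 and 150.5 CPM under PLX5622. Its ratio at 28 dpi under vehicle was -2.00 (-2.49 to -1.52), and it held. Efna1, a membrane-bound ephrin ligand, was at 113.2, 52.89 and 30.41 CPM under vehicle and also held. Lrrn3, a leucine-rich repeat protein of the membrane, was at 223.2, 44.43 and 72.09 CPM under vehicle and held at 7 and 28 dpi. The kinase Plk2 was at 165, 52.89 and 46.18 CPM under vehicle and at 176.7, 139.8 and 111.8 CPM under PLX5622.

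Between 7 and 28 dpi under vehicle, fewer genes differed. Of the 3549, 32 were past 2-fold higher at 28 dpi (0.902%) and 26 lower (0.733%), and 6 (0.169%) and 7 (0.197%) held. Mgp was higher by 1.47 (1.24 to 1.70) and held, and the 7 arterial genes had a median of 0.72. Scgb3a1 was lower by -1.85 (-2.23 to -1.48) and held, as did Cpe (carboxypeptidase E), at 232 CPM at 7 dpi and 84.48 CPM at 28 dpi. Of 10 acute inflammatory genes, Lcn2, Lrg1 and Plin2 were lower without holding.

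At sham, PLX5622 cells had higher levels of mural genes, of a few interferon genes and of Tgfb1 than vehicle cells. They had 74 genes past 2-fold higher (2.09%) and 86 lower (2.42%) against vehicle, and 14 (0.394%) and 13 (0.366%) held. None of the identity, transporter, junction, arterial or capillary genes passed. Of 10 acute inflammatory genes, 3 were past 2-fold lower and none higher. In all, 9 of these 10 had a ratio below 0, and their median was -0.24 beside -0.02 for all genes. Of 26 interferon genes, Irf9, Ifitm1 and Oasl2 were higher. Irf9, a subunit of the factor that interferon activates, was at 48.53, 83.21 and 93.49 CPM under vehicle and at 100.3, 92.04 and 77.41 CPM under PLX5622. Its ratio at sham of 1.05 (0.21 to 1.97) held. Sham vehicle cells were the lowest of the 6 libraries for Irf9, Ifitm1 and Oasl2, so these ratios rest on a low reference. The median of the interferon list was 0.14. Tgfb1, the ligand, was at 38.82 CPM under vehicle and 86.67 CPM under PLX5622 and held at 1.16 (0.23 to 2.20). Tsc22d3 (GILZ), which glucocorticoids induce, was lower under PLX5622 at sham, with 404.4, 306.8 and 332.3 CPM under vehicle and 176.7, 495.6 and 339.8 CPM under PLX5622. It held at -1.19 (-1.58 to -0.81), as did Kbtbd11 at -1.45 (-2.04 to -0.87). Mural genes led the higher genes of this comparison, with 9 of 9 measured members past 2-fold and a median of 3.53. None of them held. Of the 76 sham PLX5622 cells, 11 held the Vtn UMIs, with 32.2% in 1 cell, and 9 held those of Pdgfrb. Without cells with myeloid or mural RNA, which lowers mural genes by construction, Higd1b moved from 4.20 to -0.98 and Pdgfrb from 4.03 to -1.98. Vtn moved from 4.86 to 1.19.

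At 7 dpi, 4 of 10 acute inflammatory genes (Lrg1, Ch25h, Cebpd and Il1r1) were past 2-fold higher in PLX5622 than in vehicle cells, Plin2 was lower, and the list's median was 0.81. Only Ch25h and Cebpd held, and a single cell held 67.2% of the Ch25h UMIs of the PLX5622 library. The medians of identity and barrier genes lay near 0 once cells with other RNA were left out. Past 2-fold were 70 higher (1.97%) and 99 lower genes (2.79%), and 13 (0.366%) and 1 (0.0282%) held. The share of higher calls was 41.4% with totals, 28.3% with TMM (43 higher, 109 lower) and 35.0% with DESeq2's factors. Sox18 was higher by 1.86 (1.54 to 2.19) and Ubb by 1.62 (1.44 to 1.80), and both held. Reck, Plk2, Ier3, Tap2 and H2-T23 held as well. Reck was at 67.94, 23.27 and 48.44 CPM under vehicle and at 59.48, 79.65 and 60.21 CPM under PLX5622. Tap2 (a peptide transporter for MHC class I) was at 35.96 CPM in 7 dpi vehicle cells and 88.5 CPM in 7 dpi PLX5622 cells. Of 26 transporters, Slc2a1, Mfsd2a and Slc1a1 were past 2-fold higher, and none held. The glucose transporter Slc2a1 was at 2326, 1393 and 1465 CPM under vehicle and at 2359, 2880 and 1535 CPM under PLX5622, and its ratio of 1.05 (0.95 to 1.14) became 0.84 without cells with other RNA. Mfsd2a, which carries lipids and limits transcytosis, moved from 1.23 (0.93 to 1.54) to 0.60. The medians of identity, capillary, junction and transporter genes were 0.34, 0.39, 0.39 and 0.43, and without those cells they were 0.01, -0.18, 0.12 and 0.18. The median of all genes likewise went from 0.10 to -0.01. Of 20 immediate early genes, Ier3, Zfp36 and Hspa1a were higher and Egr1 lower, and the median was 0.59, or 0.53 without those cells.

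At 28 dpi, PLX5622 cells had 82 genes past 2-fold higher (2.31%) and 130 lower (3.66%) than vehicle cells, and 10 (0.282%) and 5 (0.141%) held. The share of higher calls was 38.7% with totals, 24.8% with TMM (56 higher, 170 lower) and 28.3% with DESeq2's factors. Sox18 was higher by 1.36 (0.98 to 1.74) and did not hold, since its ratio was 0.97 after background subtraction. None of the 26 transporters passed. Edn1, the vasoconstrictor endothelin 1, was at 129.4, 193.9 and 98 CPM under vehicle and at 232.8, 332.8 and 279.6 CPM under PLX5622, with a ratio of 1.51 (1.03 to 1.99) at 28 dpi. Its UMIs came from 12 of the 65 PLX5622 cells, and it did not hold. Ptprr, a protein tyrosine phosphatase, was at 177.9, 63.47 and 98 CPM under vehicle and at 246.4, 113.3 and 38.71 CPM under PLX5622. It was lower in PLX5622 cells at 28 dpi by -1.34 (-2.52 to -0.35) and held.

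Within PLX5622, cells at 7 dpi had higher acute inflammatory genes than sham cells. Transcription factors of the C/EBP family are known to induce some of these genes. Against sham PLX5622 cells, 83 genes were past 2-fold higher (2.34%) and 76 lower (2.14%), and 16 (0.451%) and 23 (0.648%) held. The share of higher calls was 52.2% with totals, 66.0% with TMM (105 higher, 54 lower) and 69.8% with DESeq2's factors. Of 10 acute inflammatory genes, 5 were higher (Lcn2, Lrg1, Ch25h, Cebpd and Il1r1), none was lower, and the median was 1.08, or 1.09 without cells with other RNA. All 5 held. Cebpd, a C/EBP factor, was at 245.9, 154.4 and 227.5 CPM at sham, 7 dpi and 28 dpi under vehicle and at 239.6, 564.6 and 227.9 CPM under PLX5622. The 7 dpi PLX5622 library stood above the other 5, by 1.24 (0.95 to 1.53) over its sham and by 1.87 (1.62 to 2.13) over 7 dpi vehicle, and both held. A Cebpd UMI was found in 49 of its 81 cells. Lcn2 (lipocalin 2), which binds bacterial iron carriers, was at 48.53, 177.7 and 37.17 CPM under vehicle and at 22.09, 254.9 and 8.602 CPM under PLX5622. It was highest at 7 dpi under both diets, by 1.87 (1.12 to 2.73) under vehicle and 3.53 (2.71 to 4.47) under PLX5622, and it held in both. Neutrophils also make Lcn2, and the summed level of the neutrophil markers in endothelial cells was 3588, 2267 and 423.5 CPM under vehicle and 23.79, 19.47 and 60.21 CPM under PLX5622. Their part in the vehicle levels of Lcn2 was not tested.

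A few cells carried much of this RNA. A single cell held 72.9% of the Lcn2 UMIs of the 7 dpi PLX5622 library, and Lcn2 was found in 17 of its 81 cells. Without that cell and its counterpart at sham, the ratio moved from 3.53 to 2.17. For Lrg1, a secreted glycoprotein of the acute phase, the share of 1 cell was 51.3%, and for Ch25h, which hydroxylates cholesterol, it was 67.2%. Lrg1 was at 80.88, 98.02 and 34.92 CPM under vehicle and at 30.59, 352.2 and 12.9 CPM under PLX5622, and Ch25h at 19.41, 31.73 and 45.06 CPM under vehicle and at 1.699, 205.3 and 30.11 CPM under PLX5622. The Ch25h level at sham PLX5622 was 1 UMI, and its ratio of 6.92 had an interval from 4.41 to 12.23. Il1r1, the receptor of interleukin 1, was at 80.88, 72.63 and 52.94 CPM under vehicle and at 32.29, 171.7 and 47.31 CPM under PLX5622. When every cell was thinned to 1000 UMIs, the ratios of Lrg1 and Il1r1 at 7 dpi within PLX5622 were -0.38 and -0.06. Cebpd kept a ratio of 1.79 and Lcn2 of 2.52 after thinning. That Lcn2 ratio rests on few cells, since 1 of 68 thinned sham PLX5622 cells and 5 of 71 at 7 dpi held an Lcn2 UMI.

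The promoter of Lcn2 is shown because C/EBP factors, of which Cebpd is a member, are known to act on it. The 250 bases before its start in RefSeq on GRCm38.p6 lie at chr2:32387740-32387989 on the minus strand, and capitals mark the only match to TTGCNNAA, a C/EBP-type motif searched on both strands.
Lcn2: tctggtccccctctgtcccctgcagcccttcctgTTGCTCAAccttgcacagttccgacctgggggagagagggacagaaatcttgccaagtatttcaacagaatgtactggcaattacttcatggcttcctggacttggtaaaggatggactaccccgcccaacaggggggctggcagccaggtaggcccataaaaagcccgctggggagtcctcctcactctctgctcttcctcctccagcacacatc
The match begins 216 bases before the start. These letters occur in 9.56% of all 32851 promoters of this length. Of the 8 acute inflammatory genes with a promoter, 3 held the motif (Lcn2, Ch25h and Il1r1), against 10.8% of gene symbols, and a match shows no binding.

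**Figure D5:**
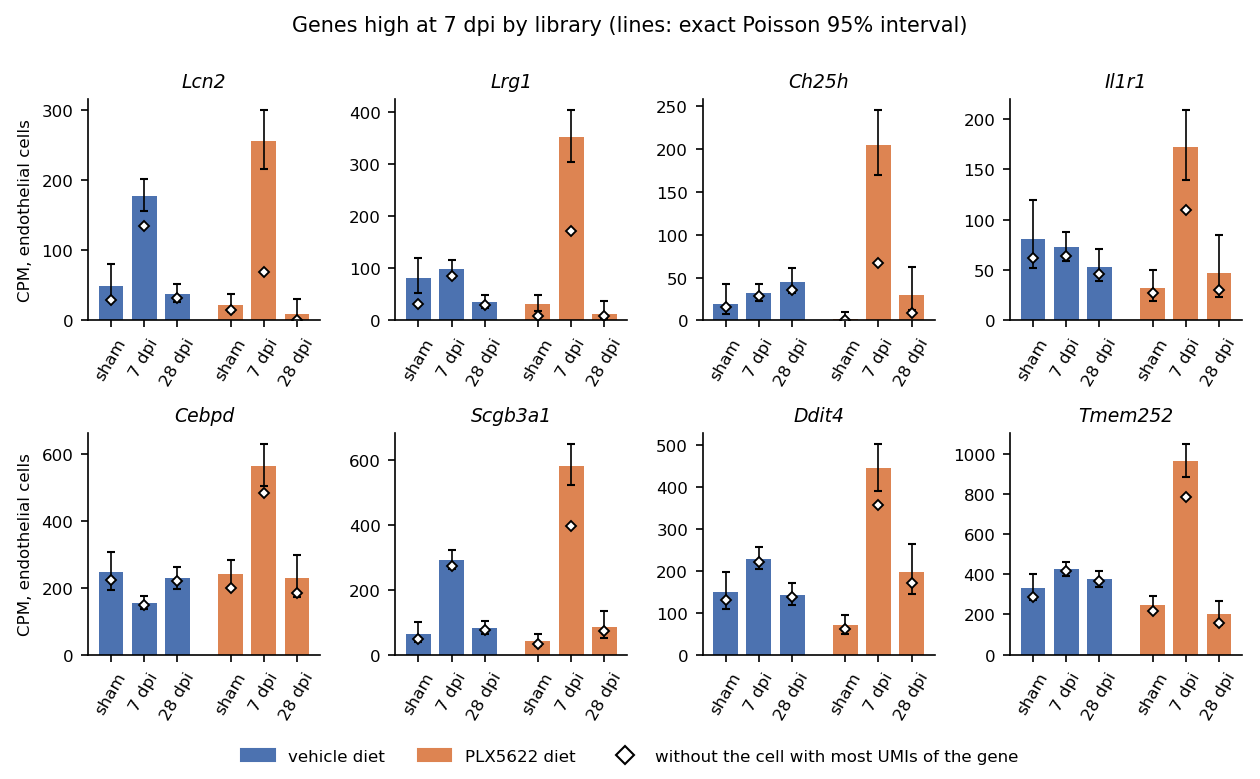
CPM of 8 genes in endothelial cells by library, with exact Poisson 95% intervals, and diamonds for the level without the cell that held most UMIs of the gene. All 8 were highest in the 7 dpi PLX5622 library, and 1 cell held 72.9% of its Lcn2 UMIs.

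Other genes that were highest in the 7 dpi PLX5622 library were spread over more cells. Ddit4 (REDD1), an inhibitor of mTOR that stress and glucocorticoids induce, was at 148.8, 229.2 and 143.1 CPM under vehicle and at 69.68, 444.3 and 197.8 CPM under PLX5622. It was past 2-fold over sham PLX5622 at 7 dpi, by 2.67 (2.19 to 3.19), and at 28 dpi, by 1.51 (0.87 to 2.15), and it held at both times. Tmem252, a membrane protein, was at 333.2, 425.9 and 376.2 CPM under vehicle and at 248.1, 962.9 and 202.1 CPM under PLX5622, and held at 1.96 (1.69 to 2.23). Tsc22d3 was higher by 1.49 (1.16 to 1.83) and Kbtbd11 by 2.25 (1.77 to 2.76) over sham PLX5622, and both held. The sham PLX5622 library was the lowest of the 6 for Ddit4, Tsc22d3 and Kbtbd11, so these ratios also rest on a low reference. Osmr, a receptor subunit for oncostatin M, held at 59.48 CPM at sham and 169.9 CPM at 7 dpi.

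Identity and barrier lists within PLX5622 at 7 dpi are read against the 2.34% of all genes higher and 2.14% lower. None of 26 transporters passed 2-fold, and their median was 0.07 beside -0.07 for all genes. Of 14 junction genes, the gap junction protein Gja1 was higher and did not hold. Of 29 identity genes, Clec14a and Hhex were lower. Clec14a held at -1.25 (-1.64 to -0.87). Of 7 arterial genes, Clu, Stmn2 and Alpl were lower, with a median of -0.83 that became -0.22 without cells with other RNA. None of 20 immediate early genes passed, and their median was -0.22. Whether the injury effect differs between the diets was not tested, since each is a ratio of 2 single libraries.

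At 28 dpi within PLX5622, 84 genes were past 2-fold higher than at sham (2.37%) and 117 lower (3.3%), and 11 (0.31%) and 31 (0.873%) held. The share of higher calls was 41.8% with totals, 47.2% with TMM and 59.4% with DESeq2's factors (114 higher, 78 lower). Lower members that held included Clec14a, Slc1a1, the zinc transporter Slc39a8 and the AP-1 subunits Jun and Jund. Jun was lower by -1.70 (-2.07 to -1.36) and Jund by -1.46 (-1.85 to -1.09). Jund was at 702, 278.5 and 404.4 CPM under vehicle and at 803.8, 449.6 and 292.5 CPM under PLX5622. Slc1a1 was lower by -1.15 (-1.73 to -0.61), and Ptprr by -2.67 (-3.83 to -1.71), with UMIs in 4 of 65 cells at 28 dpi. This library had the fewest endothelial cells and UMIs of the 6, and 1 UMI in it was worth 4.301 CPM.

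The share of endothelial cells among all cells turned with the denominator. Among cells outside the leukocyte and erythroid clusters it was 13.97%, 33.9% and 30.6% in the vehicle libraries (sham, 7 dpi, 28 dpi) and 20.5%, 34.9% and 19.6% in the PLX5622 libraries. Among all cells it was 4.57%, 4.72% and 4.27% under vehicle and 15.4%, 16.1% and 6.92% under PLX5622. Exact binomial 95% intervals for the former were 11.3% to 17.0%, 31.0% to 36.9% and 28.2% to 33.1% under vehicle. The former denominator keeps the cluster of cycling cells, which held 33620 CPM of the 12 myeloid genes, beside 53720 CPM in the microglia cluster. With the cycling cells left out too, the shares were 14.7%, 48.15% and 37.33% under vehicle and 20.88%, 36.49% and 20.63% under PLX5622. A share is not a number of cells in the cord, and dissociation yield was not measured.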

How the data were processed

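Single cells of the spinal cord were measured in 6 libraries, 1 for each diet and time, and 14 bulk RNA-seq samples of the study were not analysed here. The authors aligned reads and counted UMIs with Cell Ranger (3.0.2 in the file headers), and filtered, integrated and clustered cells with Seurat, and the labels name GRCm38 and mm10 as builds. The deposited values are counts of UMIs per gene and cell, for each library and for all 21016 cells in 1 table of 16003 genes with a cluster number per cell. Of its cells 716, 98 of them endothelial, have more than the 3000 genes of the stated upper filter, and it holds no mitochondrial genes. The counts of the endothelial cluster were summed within each library. Levels are CPM with their exact Poisson intervals, and ratios are given with exact conditional binomial intervals of 95%. A gene at 0 was set to a floor of 3 counts in ratios. Intervals cover counting error only, and counts without replicates allow no test.

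Named genes were the 5 markers, in each list the 2 of highest level and the 2 with the largest change under vehicle, and any member of a list that a comparison turns on. Per comparison they also included the 8 highest and 8 lowest ratios past 2-fold with at least 10 UMIs in the higher library and a level there at least that of all other cells, and C1qb, Tyrobp, Fth1, Apoe, Ctsd and Ly6c1. Tsc22d3, Osmr, Tgfb1 and Irf9 were named after their values were seen. A further gene, beside those named in the closing section, is not reported here. The members, the 47 gene lists and the rules were chosen with earlier results of these data known, and the rule for genes that held was added after the values were seen. Of the list symbols, 5 were found by an older symbol and 7 were not found. The background subtracted for 1 of the further counts was the profile of all other cells of the library, scaled by the ratio of the 12 myeloid genes. Doublets were not removed: Scrublet (scanpy 1.11.5) marked 30 of 21016 cells (0.143%), a share at which a caller has not worked, and 11 of them were endothelial. No barcode was shared between libraries among endothelial cells, and 44 were among all cells. Other settings were edgeR 4.0.16 TMM factors, DESeq2 1.42.0 size factors, cells thinned to 1000 UMIs (870 of 1075 endothelial cells), cells of at least 500 genes, and other level filters and denominators. The work was done in R 4.3.3 and in Python 3.11.15 with scipy 1.17.1, pandas 2.3.3 and numpy 2.4.6, and the counting of calls was tested on simulated data. Sequences are from RefSeq on GRCm38.p6.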

Additional observations from a re-analysis of the deposited data

Results flagged for a closer look

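Some genes of mural cells moved in opposite directions between the diets at 7 dpi, and the difference was not tested. Of 9 mural markers measured, 7 were past 2-fold higher and 2 lower under vehicle, beside 3.92% and 5.3% of all genes. Under PLX5622, 7 were lower, beside 2.14% of all genes. None of the 9 held in either comparison. At sham PLX5622, Acta2 was found in 3 cells, with 66.5% of its UMIs in 1, and Tagln in 4, with 72.1% in 1. The smooth muscle genes Acta2 and Tagln were lower under both diets, at -2.32 and -2.34 under vehicle and -6.35 and -4.40 under PLX5622. Among genes of opposite direction, the log2 ratios of 7 dpi over sham were 2.08 under vehicle and -1.07 under PLX5622 for Rgs5, 2.61 and -2.35 for Rgs4, 3.11 and -1.63 for Ndufa4l2, and 3.54 and -1.68 for Vtn. They were 2.85 and -2.41 for Higd1b, 4.07 and -1.21 for Atp13a5, 2.86 and -1.57 for Pdgfrb, 2.19 and -2.60 for Gm13889, 1.48 and -2.34 for Myl9, and 1.01 and -1.78 for Cald1. Mural RNA was at 300.9 CPM in sham vehicle cells and 2959 CPM in sham PLX5622 cells, so both references differed before injury.

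H2-Aa, a subunit of MHC class II, had a ratio of 28 dpi over sham of -3.99 under vehicle and 1.44 under PLX5622, again without a test of the difference. It was found in 2 sham vehicle cells, 1 of which held 95.9% of its UMIs there. Barcodes that the table of filtered cells leaves out held 31 UMIs of the 5 endothelial markers, of which 5 were in the sham vehicle library, 19 in sham PLX5622 and 7 in 7 dpi PLX5622.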

How the results depend on the processing

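With 1 library per condition no replicate could be left out, and depth limits the 28 dpi PLX5622 library most. No paired analysis was possible because each condition is 1 library. Counts of genes past 2-fold followed the level filter. With a mean of at least 20 CPM they were 712 and 635 at 7 and 28 dpi over sham under vehicle, and 382, 452 and 444 for PLX5622 over vehicle at sham, 7 and 28 dpi, and with at least 100 CPM they were 162, 121, 61, 84 and 91. Endothelial shares at sham, 7 and 28 dpi under vehicle and then PLX5622 were 13.97%, 33.88%, 30.59%, 20.49%, 34.91% and 19.64% of cells outside leukocyte and erythroid clusters, and 14.7%, 48.15%, 37.33%, 20.88%, 36.49% and 20.63% with cycling cells left out too. Of cells other than microglia they were 7.315%, 6.641% and 7.153% under vehicle. Of 125 pairs of a named gene and a comparison, 15 turned sign under at least 1 setting. After thinning, the 7 dpi over sham vehicle ratios were 2.48 for Alpl, -0.27 for Cald1 and -0.24 for Gm13889. Thinned ratios at 7 dpi were -0.063 (Il1r1) and -0.78 (Lrg1) for PLX5622 over vehicle and -0.062 and -0.38 over sham PLX5622. Without cells with mural RNA, the 7 dpi vehicle ratios were -0.29 for Atp13a5, -0.66 for Cald1, -2.46 for Gm13889 and -0.66 for Rgs4, and those within PLX5622 were 0.20 for both Ndufa4l2 and Rgs4. Without cells with myeloid or mural RNA they were -0.43 for Cald1 and Myl9 and -2.02 for Gm13889 and Rgs4 under vehicle, and 0.32 for Myl9 and Ndufa4l2 and 1.32 for Rgs4 under PLX5622. H2-Aa at 28 dpi was at 0.48 under vehicle without Scrublet doublets, and within PLX5622 at -0.46 with cells weighted alike, -1.64 after thinning and -4.37 without Scrublet doublets. The settings without mural RNA lower mural genes by construction, and other causes were not tested. Cells of at least 500 genes moved none of the 125 pairs, TMM 4 and DESeq2's factors 1. Several other settings moved more. Thinning moved 43 pairs and turned the sign of 8, and weighting each cell alike moved 38 and turned 1. Leaving out cells with myeloid or mural RNA moved 33 and turned 7. Background subtraction moved 20 pairs and 107 of the 175 list results.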

Other observations

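Genes of lipid handling and lysosomes, which foamy macrophages use, were high in endothelial cells of the injured cord under vehicle. Of 10 measured, 6 were past 2-fold higher and 1 lower at 7 dpi against sham, beside 3.92% and 5.3% of all genes, and their median of 2.29 became 0.97 without cells with myeloid or mural RNA and 0.44 after background subtraction. Apoe, a lipid carrier that microglia and macrophages make in large amounts, was at 2326, 20900 and 25620 CPM at sham, 7 dpi and 28 dpi under vehicle and at 1060, 4489 and 4013 CPM under PLX5622. Its 7 dpi ratio under vehicle was 3.17, or 0.28 after background subtraction. Ctsd, a lysosomal protease, was at 323.5, 4453 and 5506 CPM under vehicle and at 234.5, 755.8 and 1368 CPM under PLX5622. C1qb, of complement, and Tyrobp, a myeloid adaptor, were at 255.6, 1384 and 1678 CPM and at 132.6, 1438 and 1710 CPM under vehicle, and at 15.3, 417.7 and 163.4 CPM and 3.399, 164.6 and 296.8 CPM under PLX5622.

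Fth1, the heavy chain of the iron store ferritin, was highest at 7 dpi under both diets. It was at 3555, 11020 and 6989 CPM under vehicle and at 2216, 5947 and 3359 CPM under PLX5622. The 7 dpi ratio was 1.63 (1.54 to 1.72) under vehicle, 1.46 without cells with other RNA and 1.28 after subtraction, and within PLX5622 it was 1.42 (1.33 to 1.52), 1.73 and 1.28. Fth1 is not particular to these cells. Thinned T cells with an Fth1 UMI made up 63.9%, 90.9% and 95.9% under vehicle and 76.2%, 91.3% and 82.4% under PLX5622. In endothelial cells the shares were 84.2%, 97.7% and 97.0%, and 88.2%, 88.7% and 92.5%. Of the 12 iron and oxidant genes measured, 2 were past 2-fold higher at 7 dpi under vehicle and 1 within PLX5622, beside 3.92% and 2.34% of all genes.

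The summed level of 4 erythroid genes in endothelial cells was 2355, 152.3 and 238.8 CPM under vehicle and 873.5, 424.8 and 408.6 CPM under PLX5622, highest in the sham library of each diet. Of 16 hypoxia and glycolysis genes, none was past 2-fold at 7 dpi under vehicle, and Bnip3 and Ddit4 were past 2-fold higher at 7 dpi within PLX5622, where 2.34% of all genes were.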
